A study of Mus musculus with 26 samples.

Results

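The response described here is that of IR cells to 15 min of insulin. IR cells are mouse brown preadipocytes whose own insulin receptor and IGF-1 receptor genes were inactivated (DKO cells) and that carry the wild-type human insulin receptor. Its members are all 15402 gene IDs, of 52962 in the count table, with more than 0.5 CPM (counts of a gene per 1000000 counts of its library) in at least 4 of the 26 libraries of the series. The comparison rests on 6 of those libraries, 3 from cells given 100 nM insulin and 3 from unstimulated cells, called basal below. Cells of both groups were without serum for 6 h before collection. The parent preadipocytes came from newborn mice with floxed receptor genes and were immortalized with the SV40 T-antigen, and the receptor was added back afterwards, so the IR cells of both groups share 1 origin and both receptor deletions. The same treatment was applied to DKO cells with a kinase-dead receptor (K1030R, 3 libraries a group), a receptor without the C-terminal tail (∆CT, 3 basal and 2 insulin libraries) and a receptor reduced inside the cell to its juxtamembrane stretch (JMO, 3 libraries a group). Nothing in the labels says whether the libraries of a group came from separate cultures, so the p-values measure a spread between libraries that may be technical. That spread was estimated within the groups of all 26 libraries, not from the 6 IR libraries alone.

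Insulin binding switches on the tyrosine kinase of its receptor, which feeds the PI3K and AKT pathway and, through Ras, the MAP kinase ERK. Immediate early genes are the first genes transcribed after ERK is activated, because the factors that switch them on, such as serum response factor (SRF) with its ternary complex partners, are already present and need only be phosphorylated. Many encode transcription factors, and others encode phosphatases and RNA-binding proteins that end the response. FOXO factors work the other way: AKT removes them from the nucleus, which lowers the transcription of their targets.

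Library totals of the 6 IR libraries ran from 19084248 to 23779162 counts, so that 0.5 CPM is about 10 counts and genes near that level rest on few reads. The preadipocyte label was checked with marker genes: *Pdgfra* stood at 275, 283 and 276 CPM in the basal libraries and at 293, 270 and 279 CPM after insulin, and 9 of 13 listed preadipocyte markers were in the tested set, without *Dlk1*, *Ebf2*, *Prdm16* and *Zfp423*. None of the 8 mature adipocyte markers, *Adipoq* and *Ucp1* among them, passed the filter. Of 8 macrophage and leukocyte markers 4 passed, with a summed level of 18.6 to 19.2 CPM in basal and 18.8 to 20.5 CPM in insulin libraries and a median log2 fold change of 0.30, and *Ptprc* and *Adgre1* did not. *Cd68*, a lysosomal protein of macrophages, was called raised, from 2.01, 2.34 and 2.07 CPM to 3.65, 3.63 and 2.72 CPM (edgeR adjusted p = 0.0187), a call lost without basal replicate 1 or insulin replicate 1 or 2; its part in the results below was not tested. Only *Pecam1* of 8 endothelial markers and *Des* and *Acta1* of 8 skeletal muscle markers passed, and none of these 3 differed (edgeR adjusted p = 0.686, 0.624 and 0.969).

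At the minimum fold of 1.5 nearly all calls after 15 min were rises, and without it falls were called too. Tested with edgeR's quasi-likelihood method against a minimum fold of 1.5 (Benjamini-Hochberg adjusted p under 0.05), 0.214% of the tested gene IDs were raised and 0.00649% lowered. These were 33 IDs raised, which make 32 genes because *Egr2* is listed under 2 IDs with identical counts, and 1 lowered, the long noncoding RNA *BC030343*. Without a minimum fold, 1.4% of IDs were raised and 0.474% lowered, which is 211 and 72 genes after IDs with identical counts were joined. At an unadjusted p below 0.05 there were 1049 IDs higher and 1212 lower. Without basal replicate 3 the calls were 445 IDs raised and 608 lowered. They were 130 and 11 without basal replicate 1, 118 and 13 without basal replicate 2, and 120 and 9 with only the IR groups in the model. The median log2 fold change of all tested genes was -0.01. The 32 genes together held 716, 682 and 621 CPM in the basal libraries and 2714, 2803 and 2783 CPM after insulin. Most raised genes changed little: 155 of the 211 changed by less than 1.5-fold, 80 by less than 1.2-fold and 31 by at least 2-fold. Of the 72 lowered genes 61 changed by less than 1.5-fold and 47 by less than 1.2-fold.

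**Figure D1:**
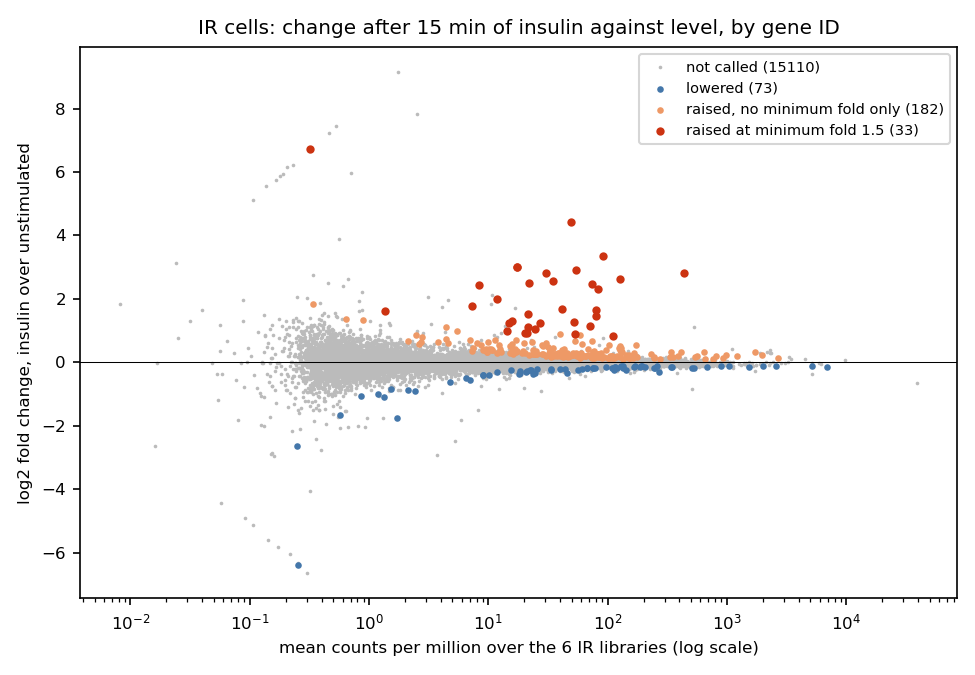
Each point is a gene ID, placed by its mean CPM over the 6 IR libraries (x, log scale) and its log2 fold change, insulin over basal (y). The 33 IDs raised at the minimum fold stand above most of the cloud (some uncalled IDs lie as high), from 0.323 CPM (*Spata5l1*) to 439 CPM (*Egr1*), while most of the 73 lowered IDs lie close to 0, with 47 of the 72 lowered genes under 1.2-fold.

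Transcription factors were among the genes with the steepest rises. *Fos*, the partner of Jun proteins in the AP-1 factor, stood at 5.0, 4.67 and 3.46 CPM in the basal libraries and at 89.0, 95.3 and 96.6 CPM after insulin, 21.3-fold higher (log2 fold change 4.41 ± 0.09, SE). *Ier2*, a nuclear immediate early protein, went from 19.3, 15.4 and 13.4 CPM to 159, 173 and 165 CPM. *Egr2*, a zinc-finger factor, went from 3.93, 4.13 and 3.46 CPM to 31.1, 31.6 and 30.5 CPM. In each of these 3 genes every insulin library was above every basal library, and the spread within a group was a small part of the gap (edgeR adjusted p = 8.11e-28, 1.68e-15 and 2.95e-22). For comparison, all 3 insulin libraries lay above all 3 basal libraries for 8.31% of all tested IDs and below them for 7.91%, and for each of the 32 raised genes the groups did not overlap.

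The EGR factors rose as a family. *Egr1* had 118, 110 and 99.1 CPM in basal libraries and 768, 762 and 774 CPM after insulin. *Egr3* had 9.78, 10.5 and 10.4 CPM and then 59.4, 60.6 and 59.2 CPM, a log2 fold change of 2.55 ± 0.07 (SE, adjusted p = 3.95e-24). Of the 5 tested members of the EGR and NAB list these 3 rose and none fell, with a list median of 2.55 on the log2 scale against -0.01 for all genes; *Egr4* was not in the tested set.

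Of 12 AP-1 subunits and small bZIP partners, 7 rose and none fell, with a median log2 fold change of 0.63. *Junb* went from 34.5, 26.3 and 22.8 CPM to 127, 144 and 145 CPM, and *Jun* from 48.1, 46.6 and 38.2 CPM to 94.7, 105 and 97.3 CPM. *Fosb* rose by 1.76 ± 0.14 (SE) on the log2 scale. *Atf3*, a stress-inducible repressor, went from 3.03, 2.66 and 2.62 CPM to 5.96, 6.48 and 5.68 CPM: it passed without a minimum fold (adjusted p = 6.48e-06) and missed the threshold at 1.5-fold (adjusted p = 0.0632). *Fosl1* (log2 fold change 0.99 ± 0.16, SE) and *Mafk* were the other members that passed.

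Other regulators moved in part. *Nr4a1*, an orphan nuclear receptor, went from 7.30, 5.59 and 6.57 CPM to 36.5, 37.3 and 37.2 CPM. In the list of 15 NR4A and Krüppel-like factors it rose with *Klf2* (log2 fold change 1.25 ± 0.06, SE) and *Klf6* (0.54 ± 0.04), and the list median was 0.11. *Hes1*, the repressor best known as a Notch target, went from 8.80, 8.96 and 9.53 CPM to 22.3, 23.6 and 21.5 CPM. In the 11 tested members of the Notch, HES, HEY and ID list it rose together with *Id1* (log2 fold change 0.72 ± 0.12, SE) and *Id3* (0.64 ± 0.07), which encode inhibitors of basic helix-loop-helix factors. Among 22 other early regulators *Nfkbiz*, *Myc*, *Srf*, *Per1* and *Bhlhe40* rose, of which *Bhlhe40* lost its call without basal replicate 1 or insulin replicate 3. *Nfkbiz*, a nuclear IκB protein, went from 40.7, 37.9 and 34.5 CPM to 66.9, 70.7 and 71.3 CPM, and *Srf* itself went from 23.7, 21.1 and 20.3 CPM to 27.3, 30.6 and 26.4 CPM.

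**Figure D2:**
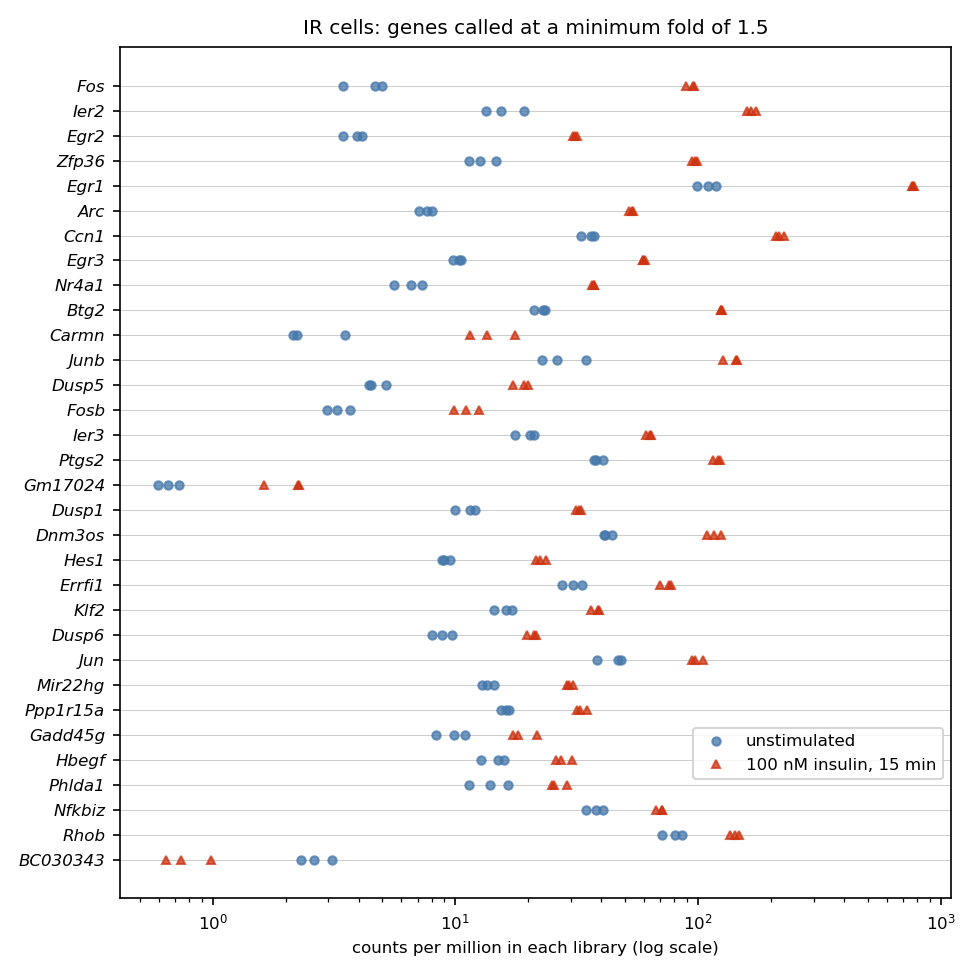
CPM (x, log scale) of the genes called at a minimum fold of 1.5 in each of the 3 basal (circles) and 3 insulin (triangles) libraries of IR cells, ordered by fold change; *Spata5l1*, at 0 counts in every basal library, is left out. In 31 genes all triangles lie to the right of all circles, and in *BC030343* to the left.

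Short stretches of promoter were searched for the letters that SRF and CREB, both targets of growth factor signalling, are known to recognise. Sites outside the stretch are missed, so a gene without a match may still carry one. RefSeq promoter windows (250 bases before to 50 after each annotated start, GRCm38.p6) were used for 22 of the 32 genes; *Ier2*, *Egr1*, *Egr3*, *Arc*, *Hes1* and 5 others were not searched. The CArG box bound by SRF, written as CC, then 6 of A or T, then GG, was in 1 or more windows of 4 of the 22 genes (18.2%) against 1.59% of the 10837 tested genes with a window. Its matches are in capitals below, each with 25 bases on either side, on the strand of the gene.

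Dnm3os, chr1:162217565-162217624, plus strand, match from 33 bases before the start: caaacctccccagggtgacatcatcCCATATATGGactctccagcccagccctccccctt
Zfp36, chr7:28379252-28379311, minus strand, match from 58 bases before the start: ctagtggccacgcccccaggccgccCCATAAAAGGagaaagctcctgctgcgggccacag
Dusp5, chr19:53529038-53529097, plus strand, match from 82 bases before the start: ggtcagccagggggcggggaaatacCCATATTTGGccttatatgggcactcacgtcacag
Egr2, chr10:67537772-67537831, plus strand, match from 72 bases before one of its annotated starts: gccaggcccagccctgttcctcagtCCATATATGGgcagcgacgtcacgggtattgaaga

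The *Dusp5* stretch holds a second CArG box, CCTTATATGG, directly after the one in capitals, and a second *Egr2* window holds another, CCTTTTTTGG. The full cAMP response element TGACGTCA, searched on both strands like all motifs, was also found for 4 of 22 genes (18.2%, against 3.34%), in genes that have no CArG match there; each is shown with its match in capitals.

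Btg2, chr1:134079289-134079346, minus strand: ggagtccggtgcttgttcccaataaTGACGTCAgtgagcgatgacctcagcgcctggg
Dusp1, chr17:26508583-26508640, minus strand: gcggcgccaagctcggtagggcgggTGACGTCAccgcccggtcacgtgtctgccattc
Errfi1, chr4:150854994-150855051, plus strand: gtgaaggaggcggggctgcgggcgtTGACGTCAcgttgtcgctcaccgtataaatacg
Ppp1r15a, chr7:45526248-45526305, minus strand: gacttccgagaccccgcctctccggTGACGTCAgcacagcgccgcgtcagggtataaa

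Its core TGACG, which every full element also contains, was in 68.2% of the 22 genes and 34.0% of all genes. The TATA box TATAAA was in 27.3% of the 22 and 9.60% of all. In *Fos*, which had the largest fold among the raised genes with basal counts, it begins 33 bases before the start.

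Fos, chr12:85473832-85473887, plus strand: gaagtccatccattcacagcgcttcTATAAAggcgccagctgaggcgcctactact

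The EGR motif GCGNGGGCG was in 22.7% of the 22 genes against 11.7% of all, and in 22.2% of the lowered genes with a window. The ETS motif CCGGAAG was in 4.55% against 19.3%, and the AP-1 motif TGANTCA in 0 of 22 against 6.52%. Among the 138 genes raised only without the minimum fold that had a window, the CArG box was in 4.35% and the full cAMP response element in 6.52%, and among 54 lowered genes in 0 and 9.26%. These shares describe letters in a window and say nothing of binding.

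Some genes that restrain ERK signalling also rose. Dual-specificity phosphatases remove phosphate from MAP kinases: *Dusp5* went from 5.17, 4.51 and 4.40 CPM to 19.1, 19.9 and 17.3 CPM, *Dusp1* from 12.0, 11.5 and 9.93 CPM to 31.3, 33.0 and 32.3 CPM, and *Dusp6* from 8.84, 9.67 and 8.0 CPM to 19.7, 21.2 and 21.5 CPM. *Errfi1*, an inhibitor of EGF receptor signalling, went from 33.3, 30.6 and 27.6 CPM to 77.1, 69.7 and 76.2 CPM. No insulin library of these 4 genes overlapped the basal range. With *Spry4* and *Spry2*, 6 of 16 tested feedback inhibitors of ERK signalling rose, 10 did not pass and none fell, with a list median of 0.17; the call of *Spry4* was lost without basal replicate 2. *Socs3*, which dampens cytokine and insulin signalling, rose by 0.62 ± 0.07 on the log2 scale (SE, adjusted p = 2.6e-07).

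mRNA decay factors formed a second group of this kind, with 6 of 10 raised and a median log2 fold change of 0.20. *Zfp36*, which binds AU-rich elements and shortens the life of early response mRNAs, went from 14.6, 11.3 and 12.6 CPM to 94.2, 97.0 and 99.3 CPM. *Btg2*, an antiproliferative cofactor of deadenylation, went from 23.1, 23.5 and 21.1 CPM to 125 CPM in each insulin library, the smallest adjusted p of the 32 genes (5.93e-30). The paralogs *Zfp36l2* and *Zfp36l1* rose by 0.38 ± 0.07 and 0.34 ± 0.04 on the log2 scale (SE).

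Of 23 immediate early and stress response proteins 14 rose and 1 fell, with a median of 0.52. *Arc*, a cytoskeleton-associated protein studied mainly in neurons, went from 7.09, 8.04 and 7.61 CPM to 53.7, 53.6 and 52.0 CPM. *Ier3*, a survival factor, went from 21.0, 20.3 and 17.6 CPM to 63.4, 63.9 and 61.3 CPM. *Ppp1r15a*, which reverses eIF2α phosphorylation, *Gadd45g* and *Rhob*, a small GTPase, rose by 1.05 ± 0.06, 0.98 ± 0.10 and 0.84 ± 0.05 on the log2 scale (SE). *Sgk1*, a kinase related to AKT, went from 28.3, 28.7 and 26.2 CPM to 51.1, 54.3 and 49.7 CPM and missed the threshold at the minimum fold (adjusted p = 0.272). The member that fell was *Gadd45b*, from 29.4, 28.0 and 24.7 CPM to 20.5, 23.3 and 20.6 CPM (adjusted p = 0.00767), with no overlap between groups; its call was lost without basal replicate 1 or 2 or insulin replicate 1 or 3.

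Some secreted and matricellular products rose. *Ccn1*, a matricellular protein and YAP target, went from 37.2, 36.3 and 33.0 CPM to 209, 226 and 216 CPM. It was 1 of 3 members raised among 14 CCN and YAP targets, with *F3*, tissue factor (log2 fold change 0.56 ± 0.04, SE), and *Ccn2* (0.56 ± 0.10), and the list median was 0.01. *Ptgs2*, the inducible cyclooxygenase, went from 37.4, 40.6 and 37.9 CPM to 115, 124 and 121 CPM. *Hbegf*, a ligand of the EGF receptor, rose by 0.93 ± 0.08 on the log2 scale (SE). Of 20 secreted early response proteins 6 were raised and none lowered (median 0.37), *Cxcl1*, *Ccl7* and *Vegfa* among them.

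**Figure D3:**
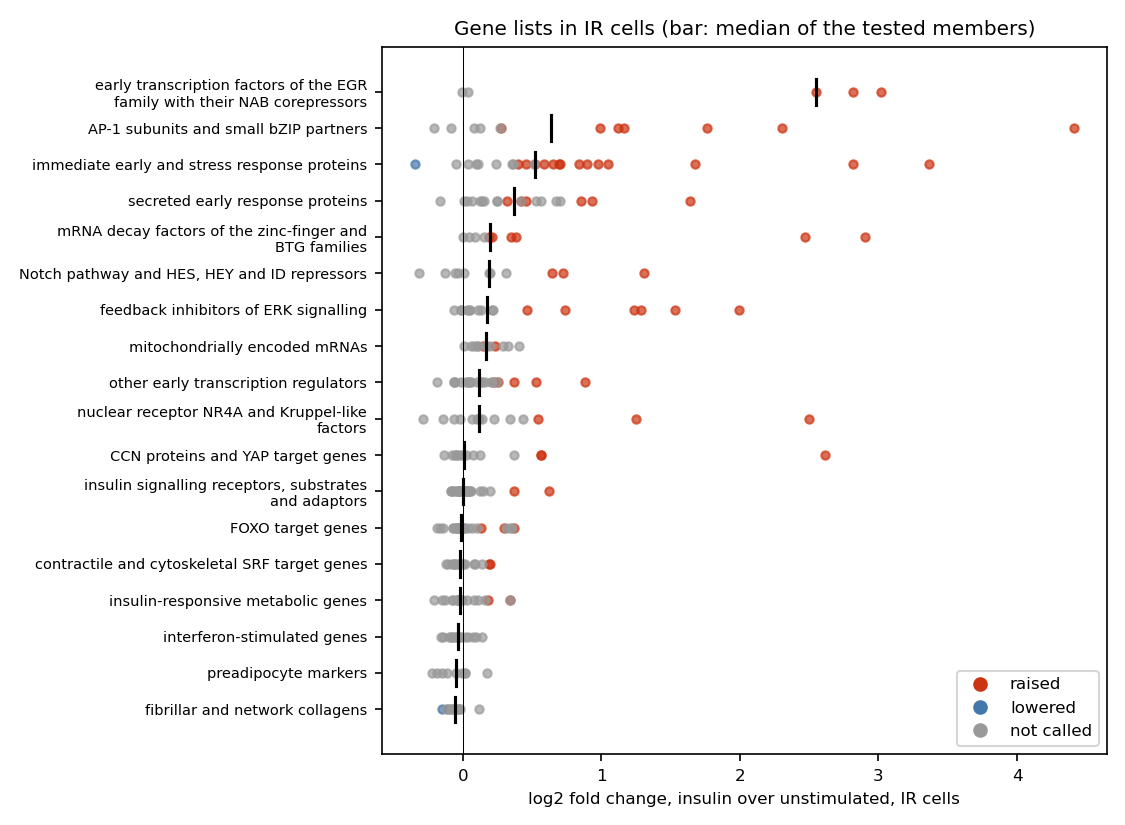
Log2 fold change, insulin over basal, of each tested member (points) of the 18 gene lists with at least 5 tested members, with the list median as a bar. The EGR, AP-1 and immediate early lists lie highest, and the FOXO, insulin signalling and metabolic lists lie around 0.

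By annotated biotype, with processed transcripts counted among them, long noncoding RNAs were 5 of the 32 genes (15.6%). They were 9.43% of all tested genes and 13.9% of the lowered genes. *Carmn* went from 2.13, 2.23 and 3.51 CPM to 17.5, 13.5 and 11.5 CPM. *Dnm3os*, the host transcript of miR-199a-2 and miR-214, went from 41.4, 41.2 and 44.3 CPM to 109, 117 and 124 CPM, and *Mir22hg*, the host of miR-22, from 12.9, 14.4 and 13.5 CPM to 29.5, 30.5 and 28.8 CPM. *Gm17024* lies inside *Ifrd1* on the same strand and reached 2.27, 2.25 and 1.63 CPM from 0.726, 0.652 and 0.593 CPM. *Spata5l1*, annotated here as a processed transcript, had 0 counts in all basal IR libraries and 16, 11 and 13 counts after insulin, at least 13.3-fold higher with 3 counts over the basal group as a floor. The basal means of DKO, K1030R, ∆CT and JMO cells for *Spata5l1* were 0.302, 0.665, 0.472 and 0.262 CPM, each above that of IR cells. The use of strand in counting was not stated, and *Zfp36*, *Junb*, *Jun*, *Dusp1*, *Dusp5*, *Errfi1*, *Phlda1*, *Ppp1r15a* and *Dnm3os* overlap a gene on the other strand, and their values can include reads of the partner.

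Lists closer to the metabolic action of insulin had medians near 0 at 15 min, with a few members raised. Over all tested genes 211 of 15233 were raised, a smaller share than in the FOXO, insulin signalling and metabolic lists below. Of 26 tested FOXO targets none fell, 3 rose and 12 were above 0, with a median log2 fold change of -0.01. The 3 were *Insr*, *Txnip* (0.30 ± 0.04, SE) and *Pdk4*, which went from 147, 150 and 141 CPM to 160, 162 and 157 CPM (adjusted p = 0.0217). In 30 insulin signalling genes only *Socs3* and *Insr* were raised, with a median of 0.00. Of 20 insulin-responsive metabolic genes 2 were raised and the median was -0.02. *Insig1*, a regulator of sterol synthesis and 1 of them, went from 587, 545 and 563 CPM to 681, 711 and 752 CPM. In 18 contractile and cytoskeletal SRF targets, *Actg1* and *Filip1l* were raised by 0.19 ± 0.04 and 0.19 ± 0.05 (SE) and the median was -0.02. The calls of *Pdk4*, *Actg1* and *Filip1l* were lost in at least 3 of the 6 fits that left out 1 IR library. None of 16 interferon-stimulated genes passed (median -0.04).

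*Insr* stood at 65.9, 67.8 and 69.3 CPM in basal and at 89.8, 87.5 and 85.2 CPM in insulin libraries (log2 fold change 0.37 ± 0.05, SE; adjusted p = 5.25e-07), and *Igf1r* at 35.7, 35.3 and 34.4 CPM and at 34.3, 34.7 and 34.2 CPM. The reads were assigned to mouse transcripts and the introduced receptor is human, so reads of the transgene and of the inactivated mouse gene cannot be told apart in the *Insr* value. The DKO mean was 23.8 CPM.

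Genes raised only without the minimum fold numbered 179. By size they began with *Csf2rb2*, *Ccr9* and *Nrl*, all under 2 CPM in every library (9 and 33 counts in the basal and insulin groups for *Csf2rb2*) and all lost as calls when basal replicate 1 or 2 was left out, followed by *Atf3*, *Fosl1*, *Sgk1* and *Coro6*, the last of which lost its call without basal replicate 2 or insulin replicate 3. Better measured members were *Plk3*, a stress-responsive kinase, *Sertad1*, *Ccnl1*, a cyclin tied to splicing, and *Dnajb1*, an HSP40 co-chaperone. *Ccnl1* went from 55.2, 56.5 and 59.6 CPM to 87.3, 88.0 and 101 CPM and *Dnajb1* from 43.7, 40.0 and 39.1 CPM to 62.0, 68.2 and 65.7 CPM, with no overlap between groups. Among those of highest CPM were *Ddx5*, an RNA helicase, *Actg1*, and the mitochondrially encoded *mt-Nd2* and *mt-Nd5*. All 13 mitochondrially encoded mRNAs had a log2 fold change above 0 (median 0.17), of which these 2 were called, while the share of counts on mitochondrial genes was 3.09 to 3.71% in basal and 3.69 to 3.85% in insulin libraries; basal replicate 3 had 2055 and 2798 CPM of *mt-Nd2* and *mt-Nd5*, within the insulin range of 1990 to 2198 and 2732 to 2862 CPM. Both calls were lost when basal replicate 1 or 2 or insulin replicate 1 or 3 was left out, and that of *mt-Nd5* also with RLE scaling, limma voom and a replicate block. The part of the mitochondrial share in these 2 calls was not tested.

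The lowered genes are described in 2 parts. Of the 12 named genes with a log2 fold change below -0.5, 10 averaged under 3 CPM and 10 were not protein coding. They were named for the size of their change. A scarce transcript needs a larger change to be called, so this sorting by level is partly built in. Over all 72 lowered genes 83.3% were protein coding, against 85.9% of all tested genes. Their median level was 71.3 CPM, against 21.9 CPM. *BC030343* (GRCm38 chr5:143270075-143272513, 1 exon) went from 2.31, 3.10 and 2.62 CPM to 0.986, 0.643 and 0.741 CPM, a log2 fold change of -1.75 ± 0.22 (SE, adjusted p = 1.53e-06). *AC166575.1*, inside *Pknox1*, went from 2.43, 3.58 and 3.61 CPM to 1.68, 1.88 and 1.53 CPM, and *Phtf1os*, antisense to *Phtf1*, from 2.78, 2.88 and 2.57 CPM to 2.07, 1.42 and 1.04 CPM. The pseudogene *Gm47605* had 15, 8 and 9 counts in basal libraries and 0 in each insulin library, at least 10.7-fold lower with 3 counts over the insulin group as a floor. *Ifnz* had 27 counts in the basal group and 4 in the insulin group. *Phtf1os* and *Gm47605* lost their calls in at least 3 of the 6 fits without 1 IR library, and *BC030343* kept its call in each.

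The lowered genes of highest CPM changed little. *Col1a1*, the main fibrillar collagen chain, had 7653, 7356 and 6746 CPM in basal and 6327, 6925 and 6335 CPM in insulin libraries (log2 fold change -0.15 ± 0.04, SE; adjusted p = 0.0439), and its groups overlapped. *Col1a2* (-0.11 ± 0.03), *Eef2*, the ribosomal translocation factor (-0.11 ± 0.03), *Lrp1* (-0.11 ± 0.03) and *Hspg2*, perlecan (-0.15 ± 0.04), were of similar size. The calls of these 5 genes were lost without basal replicate 1 or 2 or insulin replicate 1 or 3. Of 13 collagens *Col1a1* and *Col1a2* fell, none rose and 1 was above 0, with a median of -0.06. Over all tested genes 72 of 15233 were lowered, 7239 were above 0 and the median was -0.01. *Col1a1* also lost its call with limma voom and with a replicate block, and both collagens lost theirs with only the IR groups in the model. Base composition moved with these small changes, and its part in them was not tested further than by the offset given here. The median GC content of the longest transcript was 55.2% for lowered genes, 46.5% for genes raised only without the minimum fold and 48.9% for all, and the slope of log2 CPM over GC (per 10 percentage points) was 0.10, 0.04 and -0.05 in basal replicates 1 to 3 and -0.05, 0.02 and -0.05 in the insulin replicates. With a base composition offset per library, added after the data were seen, 56 IDs were lowered, of which 40 were among the 73, and *Col1a2*, *Eef2*, *Lrp1* and *Hspg2* were no longer called; 231 were raised, with 183 of the 215, and 34 were raised at the minimum fold, with all 33. The lowered count was 608 without basal replicate 3, 11 without basal replicate 1 and 13 without basal replicate 2.

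The genes raised at the minimum fold were short. Their median gene length was 4093 bp with 3 exons, against 20306 bp and 7 exons over all tested genes, 12099 bp and 7 exons for those raised only without the minimum fold, and 6913 bp and 4.5 exons for the lowered genes. *Ier2*, *Junb*, *Jun*, *Rhob* and *Dnm3os* have 1 exon each. Their median GC content was 54.0%.

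**Figure D4:**
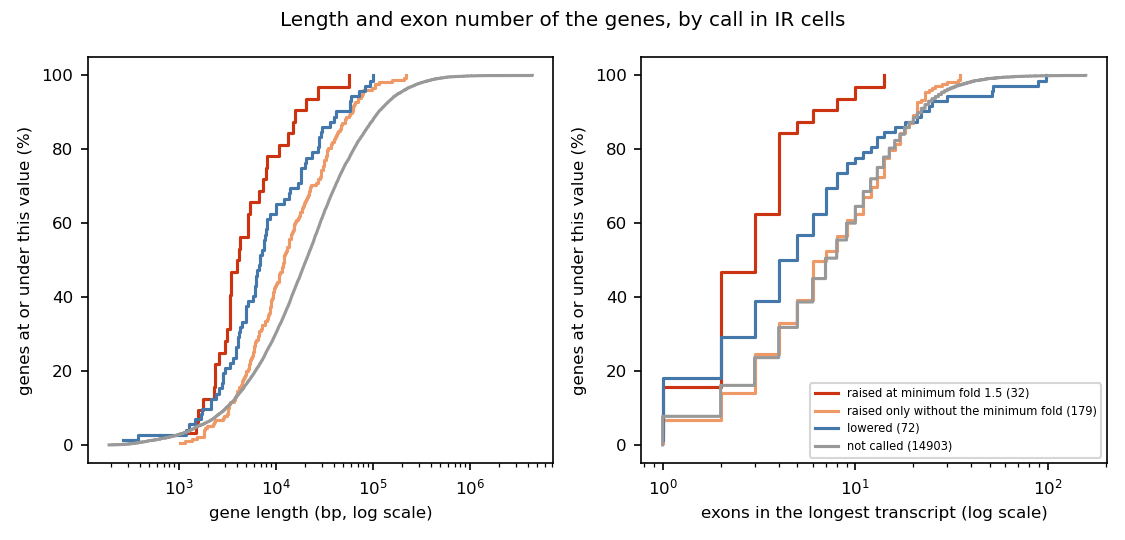
Cumulative share of genes (y, percent) by gene length in bp (left, log scale) and by exons of the longest transcript (right, log scale), for 4 sets of genes by their call in IR cells. The curve of the 32 genes raised at the minimum fold lies to the left over most of both panels, with medians of 4093 bp and 3 exons against 20306 bp and 7 exons over all tested genes.

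Between receptors the size of the rise differed widely. Across the 32 genes the median log2 fold change was 1.66 in IR, 1.64 in ∆CT, 0.18 in K1030R and 0.36 in JMO cells. Insulin effects of different lines share no library. The 32 genes were chosen by their call in IR cells, which favours a larger value there. Tested gene by gene over all 15402 IDs, the effect differed between IR and K1030R cells for 0.37% of IDs, between IR and JMO for 0.279% and between IR and ∆CT for 0.00649%. Of the 32 genes 31 differed from K1030R, all with the larger rise in IR cells, and *Gm17024* did not pass (log2 difference 1.15 ± 0.38, SE). From JMO 27 differed, and *Dusp1*, *Dnm3os*, *Mir22hg*, *Gm17024* and *Spata5l1* did not pass. Against ∆CT cells only *Egr1* passed, with a rise 0.77 larger on the log2 scale than in IR cells (edgeR adjusted p = 0.00063). *Fos* had a difference of similar size that did not pass. The median difference, IR minus ∆CT, over all 32 was -0.04, and 11 were above 0.

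A few of the 32 genes also rose in cells with the kinase-dead receptor. The series has no insulin libraries of DKO cells without a receptor, and no mock addition is described. Rises from handling, or from insulin acting without the introduced receptor, cannot be told apart here from rises through it. In K1030R cells 0.11% of all IDs were raised, and 6 of the 32 were among them: *Ccn1* (log2 fold change 0.67), *Dusp1* (0.65), *Dnm3os* (0.61), *Egr1* (0.46), *Ier3* (0.40) and *Ppp1r15a* (0.37). *Fos* and *Ier2*, with 0.31 and 0.43, did not pass in K1030R cells. In JMO cells, where 0.331% of IDs were raised, 16 of the 32 passed, from 1.17 for *Fos* and 1.16 for *Dnm3os* down. Over the 211 genes raised without a minimum fold, 112 passed in ∆CT (0.935% of all IDs), 14 in K1030R and 40 in JMO cells, and 204, 171 and 192 had a log2 fold change above 0.

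**Figure D5:**
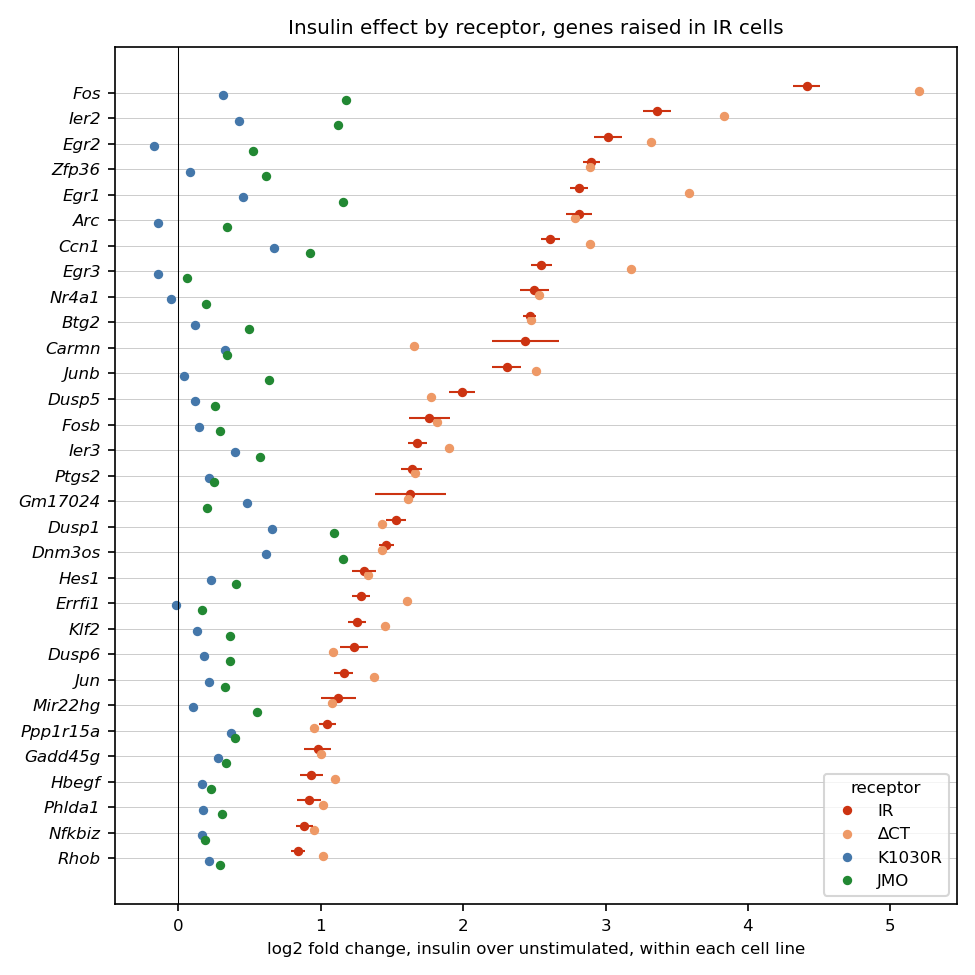
Log2 fold change, insulin over basal, within each of the 4 receptor lines for the 31 genes raised at the minimum fold in IR cells other than *Spata5l1*; lines mark ± 1 SE for IR. IR and ∆CT points lie together to the right, and K1030R and JMO points lie between -0.18 and 1.17.

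Among the lowered genes no difference between receptors passed. None of the 72 differed between IR and any other line, and 67, 53 and 58 of them were below 0 in ∆CT, K1030R and JMO cells. Their medians there were -0.08, -0.02 and -0.03, against -0.20 in IR. The 72 were chosen by their call in IR cells, which favours a larger fall there, so these medians do not compare the receptors. Over all tested genes the medians in ∆CT, K1030R and JMO cells were -0.01, 0.0002 and -0.0008. In ∆CT cells 4 passed (0.0714% of all IDs were lowered), in K1030R cells 1 (0.0454%) and in JMO cells 0 (0.0325%). *BC030343* passed in ∆CT (log2 fold change -1.15) and in the kinase-dead K1030R cells (-1.09, adjusted p = 0.0161), and had -0.50 in JMO cells. *Gm17249* had -0.83 in IR, -1.28 in ∆CT, -0.86 in K1030R and -0.74 in JMO cells, of which the first 2 passed, and *5830408C22Rik* had -1.0, -0.70, -0.85 and -0.76, of which only the first passed. The IR call of *Gm17249* was lost in each of the 6 fits that left out 1 IR library, and that of *5830408C22Rik* in 4 of them.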

How the data were processed

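RNA was captured with oligo-dT beads, made into libraries and read as 100-base single-end reads. The authors trimmed the reads with fastp, quantified the Ensembl 98 mouse transcriptome with kallisto and used tximport for totals per gene; the deposited values are expected counts per gene, neither filtered nor scaled (79.9% are exactly whole, with no tolerance). Versions are not given in the sources used here. Nothing was left out: all 26 libraries in 9 groups entered the fit, each assigned by its label.

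Counts were rounded, gene IDs above 0.5 CPM in at least 4 libraries were kept, and TMM factors scaled the libraries (totals 17228982 to 24694828). edgeR 4.0.16 (R 4.3.3) fitted a robust quasi-likelihood model with 1 mean per group. Calls used glmTreat at a minimum fold of 1.5 or the quasi-likelihood F-test, adjusted by Benjamini-Hochberg over all 15402 IDs at 0.05; differences between lines were contrasts of that model. CPM are TMM-scaled. SEs were taken from the log2 fold change and F. The biological coefficient of variation was 4.44%. The spread between IR replicates exceeded counting noise (chi-square per degree of freedom 6.87 to 23.6, the highest for insulin replicates 1 and 3).

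Genes named are *Fos*, *Ier2* and *Egr2*, all genes called at the minimum fold, the 15 raised and 20 lowered genes of largest change and the 5 of highest CPM in each direction among the other calls, up to 4 called members of each of 22 lists (or the 2 of highest CPM), *Insr* and *Igf1r*; where a count is small its other members are named too, chosen after their values were seen. Not all named genes are described singly, and a few are not reported here. Members and lists were chosen with earlier results of these data known. Symbols, lengths and biotypes are from GENCODE mouse release 21 (GRCm38, the build of Ensembl 98), which held 15186 of the 15233 genes left after joining IDs with identical counts; promoter sequences are from RefSeq (GRCm38.p6). The scripts were tested on simulated data. Alternatives were RLE scaling, other filters, unrounded counts, DESeq2 1.42.0, limma voom 3.58.1, the groups compared alone, a replicate block, other thresholds and each library left out.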

Additional observations from a re-analysis of the deposited data

Results flagged for a closer look

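The effect of insulin differed between IR cells and another line, by a test of the difference itself, in 57 gene IDs for K1030R, 43 for JMO and 1 for ∆CT. All 57 and all 43 were among the IDs raised in IR cells and had the larger rise there.

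Against the kinase-dead K1030R receptor, the log2 difference of the effects (IR minus K1030R) among the genes raised at the minimum fold was, in the order of their rise, *Fos* 4.10, *Ier2* 2.93, *Egr2* 3.19, *Zfp36* 2.82, *Egr1* 2.36, *Arc* 2.95, *Ccn1* 1.94, *Egr3* 2.69, *Nr4a1* 2.56 and *Btg2* 2.35. It was *Carmn* 2.11, *Junb* 2.27, *Dusp5* 1.88, *Fosb* 1.62, *Ier3* 1.28, *Ptgs2* 1.42, *Dusp1* 0.87, *Dnm3os* 0.85, *Hes1* 1.08 and *Errfi1* 1.30, and for the rest *Klf2* 1.13, *Dusp6* 1.05, *Jun* 0.94, *Mir22hg* 1.02, *Ppp1r15a* 0.68, *Gadd45g* 0.70, *Hbegf* 0.77, *Phlda1* 0.74, *Nfkbiz* 0.72 and *Rhob* 0.62. For *Spata5l1*, at 0 counts in all basal IR libraries, the fitted difference of 6.94 depends on the prior count of the model and is no measure of size.

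Against the JMO receptor, which has no kinase domain, the differences (IR minus JMO) were *Fos* 3.24, *Ier2* 2.24, *Egr2* 2.49, *Zfp36* 2.29, *Egr1* 1.66, *Arc* 2.47, *Ccn1* 1.69, *Egr3* 2.49 and *Nr4a1* 2.30, then *Btg2* 1.97, *Carmn* 2.10, *Junb* 1.67, *Dusp5* 1.74, *Fosb* 1.47, *Ier3* 1.10, *Ptgs2* 1.39, *Hes1* 0.90 and *Errfi1* 1.12, and *Klf2* 0.89, *Dusp6* 0.87, *Jun* 0.83, *Ppp1r15a* 0.65, *Gadd45g* 0.64, *Hbegf* 0.70, *Phlda1* 0.61, *Nfkbiz* 0.70 and *Rhob* 0.55.

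Against ∆CT, with 2 insulin libraries, the difference passed in *Egr1* alone, at -0.77 (IR minus ∆CT). *Fos* at -0.79 ± 0.19 and *Egr3* at -0.63 ± 0.12 (SE) did not pass (edgeR adjusted p = 0.979 and 0.0599). Of the 32 genes 11 had a difference above 0. *Egr1* was at 109 CPM in basal IR and 60.6 CPM in basal ∆CT cells, and at 768 and 726 CPM after insulin.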

How the results depend on the processing

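The 33 IDs raised at the minimum fold were the most stable result: they were 33 with RLE scaling, 30 with limma voom and DESeq2, 35 with a model of only the 2 IR groups, and 27 to 34 when each of the 26 libraries was left out in turn. They moved to 74 without a filter on low counts, 52 at a minimum fold of 1.2 and 21 at 2. Genes named among them were called without a minimum fold, at an adjusted p below 0.05, in all 476 values that could be scored. *Spata5l1*, *Carmn*, *Fosb* and *Gm17024* were scored in 14 alternatives, where up to 15 were possible. The stricter adjusted p thresholds were not among those scored. *Spata5l1*, with an edgeR adjusted p of 0.00323 in the main fit, does not pass the strictest of them. The 1 lowered ID became 29 without a filter, 5 at a minimum fold of 1.2, 0 at 2 and 3 with only the groups compared, and ran from 1 to 2 with 1 library left out.

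Without a minimum fold, the 215 raised and 73 lowered IDs became 120 and 9 at an adjusted p below 0.01, 80 and 1 below 0.001, 355 and 359 without a filter, and 120 and 9 with only the groups compared. With 1 library left out they ran from 118 to 445 raised and from 11 to 608 lowered; both maxima were without basal replicate 3 of IR. The lowered IDs were 14 and 16 without insulin replicates 1 and 3, 131 without replicate 2 and 120 without basal replicate 3 of ∆CT, and the raised IDs were 130, 118 and 137 without basal replicate 1, basal replicate 2 or insulin replicate 3. The causes were not tested. The named genes were scored in up to 15 alternatives, not at the stricter adjusted p or with a library of another line left out. Where scored, 24 of 38 raised only without the minimum fold and 3 of 26 lowered kept their call throughout. Each of those 3 lowered genes was scored in 14 alternatives. DESeq2 gave no adjusted p for 18 raised and 12 lowered IDs.

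The differences between lines became 141 for ∆CT, 293 for K1030R and 248 for JMO without a filter, and 2 for ∆CT with at least 10 counts in at least 4 libraries, with only the groups compared and with the base composition offset. With 1 library left out they ran from 1 to 3 for ∆CT, 52 to 185 for K1030R and 38 to 98 for JMO; the maxima for K1030R and JMO were without basal replicate 3 of IR. Signs changed only in markers that were not called: with 1 IR library left out the log2 fold change ran from -0.27 to 0.15 for *Acta1*, from -0.017 to 0.042 for *Pdgfra* and from -0.068 to 0.40 for *Des*.

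The residual correlations of same-numbered IR libraries were -0.09, 0.01 and 0.05. They gave no sign of pairing by replicate number, and with 3 libraries a group they cannot exclude it. With a replicate block, 236 IDs were raised and 106 lowered, and 35 raised at the minimum fold. Depth limits the scarce transcripts: a CPM of 0.5 is about 10 counts.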
